A study of Rattus norvegicus with 9 samples.

Results

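Genes whose proteins control how fast messenger RNAs are destroyed were followed in the superior mesenteric artery (SMA) of rats after blood loss. The 10 genes were taken by their symbols from the deposited table: Zfp36, Zfp36l1, Zfp36l2, Zc3h12a, Rc3h1, Rc3h2, Btg1, Btg2, Tob1 and Tob2. They are 10 of 37203 gene symbols, and all 10 passed the filter on low counts that left 15482 genes to test. The table holds 9 libraries of SMA tissue from 8-week-old Sprague-Dawley rats, in 3 groups of 3. The Normal group had no ischemia, and the sources used here do not say whether these rats were anaesthetised or catheterised. The Ischemia 1h and Ischemia 4h groups were anaesthetised with sodium pentobarbital and bled through a femoral artery, and their time started once the model was in place. All rats shared strain and age, and the labels name no modified allele. If the normal rats had no operation, the operation and the ischemia cannot be told apart. Each library held 13114273 to 15504240 counts.

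Many transcripts made in the first minutes of a cellular response, such as those of cytokines and immediate early genes, are built to be short-lived. ZFP36 (tristetraprolin) and its relatives ZFP36L1 and ZFP36L2 bind AU-rich elements in such transcripts and bring in the CCR4-NOT complex, which removes the poly(A) tail. ZC3H12A (Regnase-1) cuts stem-loops in inflammatory transcripts, RC3H1 and RC3H2 (Roquin-1 and Roquin-2) bind similar stem-loops, and the BTG and TOB proteins tie the deadenylases CNOT7 and CNOT8 to their targets. Several of these regulators are themselves immediate early genes.

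The members differ in the sequence upstream of their starts. The 250 bases before the start were read from RefSeq (assembly GRCr8) for the 9 members that the table of promoters holds, and those of 5 of the 6 members whose groups did not overlap at 4 h are shown, because they carry 1 of the motifs searched. Capitals mark the motif.
Zfp36 promoter, chr1:92799109-92799358, minus strand: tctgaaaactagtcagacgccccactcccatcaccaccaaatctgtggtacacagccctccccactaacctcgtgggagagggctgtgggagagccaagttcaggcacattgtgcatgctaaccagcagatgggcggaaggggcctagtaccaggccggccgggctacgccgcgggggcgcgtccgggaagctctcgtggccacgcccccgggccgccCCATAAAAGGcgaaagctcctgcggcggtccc
Btg2 promoter, chr13:48087691-48087940, minus strand: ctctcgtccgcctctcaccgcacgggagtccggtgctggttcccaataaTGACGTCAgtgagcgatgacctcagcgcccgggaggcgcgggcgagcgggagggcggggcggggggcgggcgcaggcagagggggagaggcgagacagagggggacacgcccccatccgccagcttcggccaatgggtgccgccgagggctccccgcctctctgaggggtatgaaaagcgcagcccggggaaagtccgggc
Zc3h12a promoter, chr5:142669986-142670235, minus strand: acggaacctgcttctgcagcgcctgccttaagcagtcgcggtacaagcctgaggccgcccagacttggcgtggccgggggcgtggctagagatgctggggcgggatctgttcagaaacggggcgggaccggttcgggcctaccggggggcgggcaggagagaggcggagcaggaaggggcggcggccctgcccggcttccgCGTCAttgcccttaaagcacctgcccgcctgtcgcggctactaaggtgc
Tob2 promoter, chr7:115251564-115251813, minus strand: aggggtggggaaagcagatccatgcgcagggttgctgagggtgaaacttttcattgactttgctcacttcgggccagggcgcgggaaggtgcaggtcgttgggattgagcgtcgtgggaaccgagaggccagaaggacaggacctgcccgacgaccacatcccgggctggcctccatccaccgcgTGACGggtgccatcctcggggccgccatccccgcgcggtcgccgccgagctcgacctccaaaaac
Zfp36l1 promoter, chr6:104668691-104668940, minus strand: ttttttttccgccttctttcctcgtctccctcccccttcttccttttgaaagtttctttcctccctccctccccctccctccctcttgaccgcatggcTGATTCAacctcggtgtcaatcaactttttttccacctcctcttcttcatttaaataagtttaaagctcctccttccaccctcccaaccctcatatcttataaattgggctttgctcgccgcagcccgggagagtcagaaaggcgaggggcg

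In Zfp36 the capitals are a CArG box, the element bound by serum response factor, which lies 32 to 23 bases before the start and occurs in 1.5% of the 33469 rat promoters of this length. Its inner letters ATAAAA are also close to those of a TATA box, which was not searched. In Btg2 they are a cyclic AMP response element (CRE, TGACGTCA) 201 to 194 bases before the start, an element found in 1.59% of all promoters. Each whole CRE also contains its shorter core TGACG. That core was counted on its own in Zc3h12a, where it lies on the opposite strand 49 to 45 bases before the start, in Tob2 at 65 to 61 bases and in Zfp36l2, and it occurs in 18.2% of all promoters. Zfp36l1 holds an AP-1 site (TGANTCA) 152 to 146 bases before the start, as do 6.34% of all promoters. The E-box CACGTG (5.59% of promoters) and the NF-kB site (3.54%) were in none of the 9 windows, and none of the searched motifs was in those of Rc3h1, Btg1 and Tob1. Both strands were searched. A match describes letters in this window and is not a bound site.

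The 10 regulators did not move as a block. In the group means Zfp36, Btg2 and Zc3h12a were about as much higher at 1 h as at 4 h, Tob2 was higher mainly at 4 h, Btg1 and Zfp36l1 were lower at 4 h, and the Roquin genes stayed near their normal level. None of these differences passed the test used here, which is edgeR's quasi-likelihood test with Benjamini-Hochberg adjustment over 15482 genes, an adjusted p under 0.05 and a fold change over 1.5. At 1 h 0 of 10 members were called, where 0.0581% of all genes were, while 4 members had an unadjusted p under 0.05 (16.7% of all genes) and DESeq2 called 3 (4.53% of all genes), all of them higher (2.29% of all genes). At 4 h 0 of 10 were called, against 0.0904% of all genes, while 6 members had an unadjusted p under 0.05 (12.4% of all genes) and DESeq2 called 4 (3.91% of all genes), all higher (1.54% of all genes). Both comparisons use the same 3 normal libraries, so they are not independent of each other. The p-values measure the spread between 3 rats a group. In a whole artery, fewer cells of a type and less RNA per cell cannot be told apart.

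**Figure D1:**
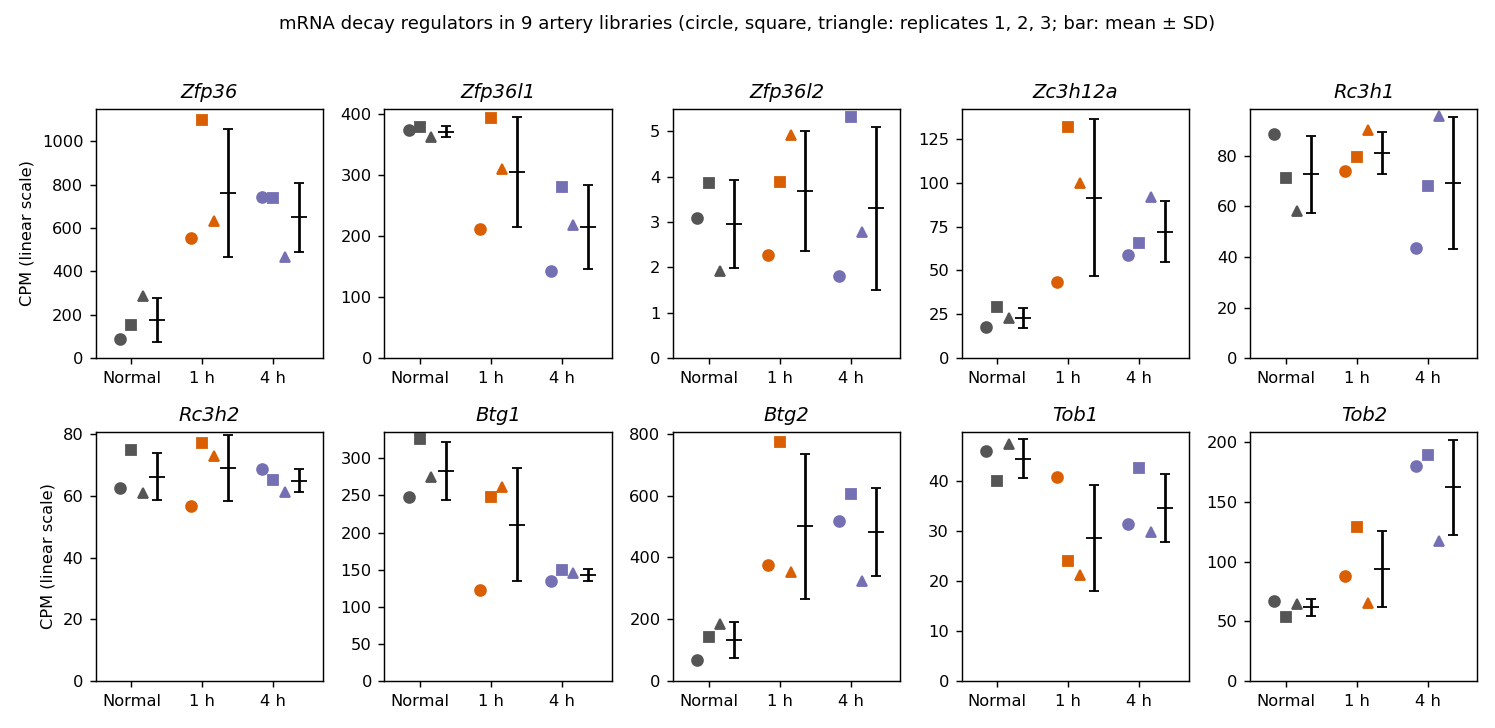
Level of each of the 10 genes in CPM (counts scaled by library size, linear axis from 0, a scale of its own for each gene) in the 9 libraries. Circles, squares and triangles are replicates 1, 2 and 3 of the Normal, 1 h and 4 h groups, and the bar is the mean ± SD (n = 3). For Zfp36, Btg2 and Zc3h12a all ischemic libraries lie above all normal ones, while for Btg1 and Zfp36l1 the 3 libraries at 4 h lie below them.

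Zfp36 codes for tristetraprolin, the founding AU-rich element binding protein of the family. Its level was 86.8, 155 and 287 CPM in normal replicates 1, 2 and 3, then 555, 1098 and 631 CPM at 1 h and 743, 738 and 465 CPM at 4 h (CPM are counts scaled by library size after the TMM method). The lowest ischemic library thus stood above the highest normal one, and the normal libraries themselves spread widely. Group means were 176 ± 102, 761 ± 294 and 649 ± 159 CPM (SD, n = 3). The fitted difference at 1 h was 2.11 on the log2 scale (SE 0.48), a 4.33-fold higher level, with an unadjusted p of 0.00221 and an adjusted p of 0.188 by edgeR. DESeq2 gave nearly the same size, 2.12, with an adjusted p of 0.00149. At 4 h the difference was 1.88 (SE 0.48), or 3.69-fold, with an adjusted p of 0.177 by edgeR and 0.00625 by DESeq2.

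The other family members behaved differently. Zfp36l1, known for roles in vessel and lymphocyte development, was tight in the normal group at 375, 379 and 362 CPM. It was 212, 394 and 311 CPM at 1 h, where replicate 2 was above every normal library, and 144, 281 and 219 CPM at 4 h, where all 3 were below them. The 4 h mean of 215 ± 68.9 CPM against 372 ± 8.57 CPM gave a fitted log2 difference of -0.79 (SE 0.31, 95% interval -1.50 to -0.09), a 1.73-fold lower level, with an adjusted p of 0.344 by edgeR and 0.179 by DESeq2. Its unadjusted p of 0.0316 went as high as 0.0951 when single libraries were left out. At 1 h its difference was -0.28 (95% interval -0.98 to 0.42), and -0.078 without 1 h replicate 1. Zfp36l2 rested on only 22 to 80 counts a library, from 1.82 to 5.31 CPM over all 9, and its groups overlapped at both times with log2 differences of 0.32 (SE 0.50) and 0.16 (SE 0.50).

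Counts of the 3 family members were set against each other within each library, which removes the scaling between libraries. Zfp36 gave 18.7%, 28.8% and 44.0% of the family's counts in the normal libraries, 72.1%, 73.4% and 66.6% at 1 h and 83.6%, 72.0% and 67.7% at 4 h. A minority share in every normal library was a majority share in every ischemic one. The mean difference was 40.2 percentage points at 1 h (SE 7.66) and 44.0 at 4 h (SE 8.77), and the exact two-sided permutation test gave p = 0.1 at each time, the smallest that 3 against 3 can give, or 0.133 adjusted over the 8 share tests made. Shares are not corrected for gene length, so they show how the balance of counts differs between groups and not which transcript is the more abundant. The summed level of the family was 465, 537 and 651 CPM in the normal group. It was 769, 1496 and 947 CPM at 1 h and 889, 1024 and 687 CPM at 4 h. This sum was higher in every ischemic library than in any normal one, and it was not tested. Zfp36l1 went the other way at 4 h, at 144 to 281 CPM against 362 to 379 CPM in the normal group.

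Zc3h12a, the gene of the endonuclease Regnase-1, was at 17.6, 29.0 and 22.6 CPM in the normal group, 43.3, 132 and 99.5 CPM at 1 h and 58.7, 65.7 and 91.8 CPM at 4 h. All 6 ischemic libraries lay above the 3 normal ones, which were close together. The log2 difference was 1.99 at 1 h (SE 0.41, 3.97-fold) and 1.64 at 4 h (SE 0.40, 3.13-fold). By edgeR the adjusted p was 0.159 at 1 h and 0.167 at 4 h, and by DESeq2 it was 0.000608 and 0.00741. Its unadjusted p at 1 h, 0.00109, was the lowest of the 10 members at that time.

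The Roquin genes, whose products also recognise stem-loops, had no such pattern. Rc3h2 was the steadiest member, with 62.7, 75.0 and 61.0 CPM in the normal group, 56.9, 77.1 and 73.1 CPM at 1 h and 68.8, 65.1 and 61.2 CPM at 4 h. The 95% intervals of its log2 difference were -0.33 to 0.45 at 1 h and -0.41 to 0.36 at 4 h, so a doubling or a halving lies outside both. Rc3h1 was at 88.7, 71.1 and 58.2 CPM, then 74.0, 79.4 and 90.1 CPM and then 43.7, 67.9 and 95.9 CPM, with overlap throughout. Its intervals, -0.50 to 0.82 and -0.73 to 0.59, are wider. The Rc3h1 share of the counts of both genes was 52.0% ± 5.70 in the normal group, 54.2% ± 3.05 at 1 h and 50.3% ± 11.1 at 4 h (SD, n = 3), and the exact permutation p was 0.7 and 1.

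**Figure D2:**
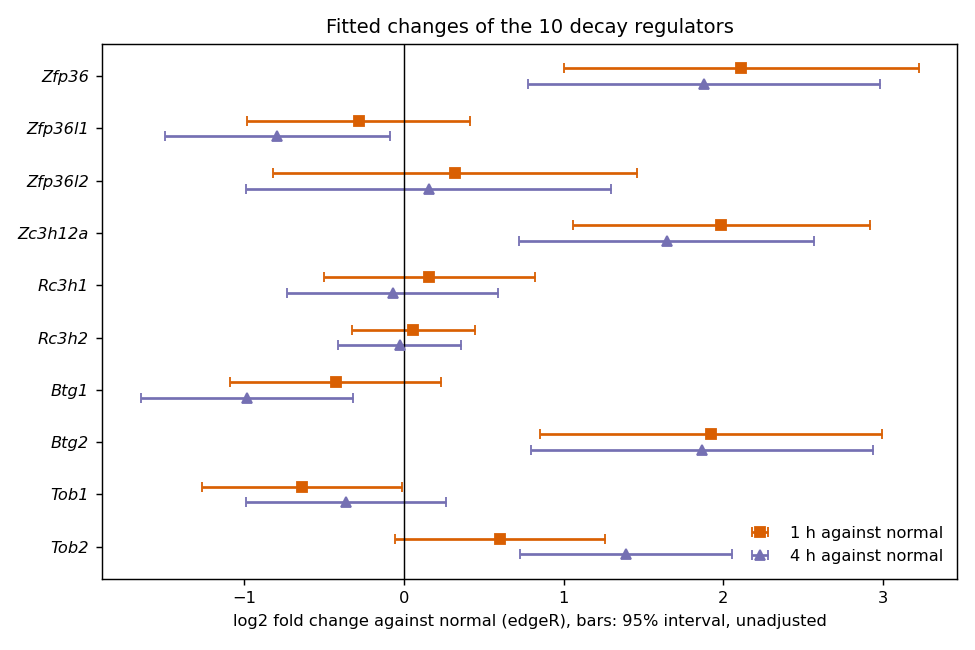
Fitted log2 fold change of each member against normal at 1 h (squares) and 4 h (triangles), with unadjusted 95% intervals from the edgeR fit of all 9 libraries. Intervals of Zfp36, Zc3h12a and Btg2 lie above 0 at both times and that of Tob2 at 4 h, those of Btg1 and Zfp36l1 lie below 0 at 4 h and that of Tob1 at 1 h, and none of the 10 genes passed the adjusted threshold.

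Btg2 and Btg1 code for closely related antiproliferative proteins that bind the CNOT7 and CNOT8 deadenylases, and Btg2 is a classical immediate early gene and p53 target. Btg2 was at 69.3, 143 and 183 CPM in the normal group, 374, 772 and 354 CPM at 1 h and 516, 603 and 324 CPM at 4 h. No ischemic library overlapped the normal range. The log2 difference was 1.92 at 1 h (SE 0.47, 3.79-fold) and 1.87 at 4 h (SE 0.47, 3.65-fold), with adjusted p of 0.206 and 0.169 by edgeR and 0.00398 and 0.00539 by DESeq2. Btg1 was at 248, 326 and 275 CPM in the normal group, 123, 247 and 261 CPM at 1 h and 134, 150.2 and 145 CPM at 4 h. At 1 h 1 of 3 libraries fell within the normal range, and at 4 h all 3 were below it and close together. The 4 h difference of Btg1 was -0.98 (SE 0.29, 95% interval -1.65 to -0.32), a 1.98-fold lower level, with an adjusted p of 0.225 by edgeR and 0.0501 by DESeq2.

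Within the pair the balance of counts was the other way round in the ischemic libraries. Btg2 gave 21.8%, 30.5% and 40.0% of the counts of both genes in the normal libraries, 75.3%, 75.7% and 57.5% at 1 h and 79.4%, 80.1% and 69.0% at 4 h. The mean share differed by 38.8 percentage points at 1 h (SE 7.97) and 45.4 at 4 h (SE 6.35), with an exact permutation p of 0.1 and an adjusted value of 0.133 at both times. As in the Zfp36 family, normal replicate 3 had the highest share of its group and replicate 3 the lowest share at each time of ischemia.

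Tob2 and Tob1 code for the longer members of the same protein family, which bind both the deadenylases and the poly(A) binding protein. Tob2 was at 67.4, 53.9 and 64.1 CPM in the normal group, 87.6, 129 and 65.4 CPM at 1 h and 180.3, 189 and 117 CPM at 4 h. At 1 h replicate 3 lay inside the normal range, and at 4 h all 3 libraries lay above it. The log2 difference was 0.60 at 1 h (SE 0.29, 95% interval -0.05 to 1.26, but 0.31 without 1 h replicate 2) and 1.39 at 4 h (SE 0.29, 2.62-fold), and at 4 h the adjusted p was 0.115 by edgeR and 0.00103 by DESeq2. Tob1 was at 46.1, 40.1 and 47.3 CPM, then 40.8, 23.9 and 21.2 CPM and then 31.4, 42.5 and 29.9 CPM. Replicate 1 at 1 h and replicate 2 at 4 h lay within its normal range, and its log2 differences were -0.64 (SE 0.27, adjusted p 0.296 by edgeR, and -0.98 without 1 h replicate 1) and -0.36 (SE 0.27, adjusted p 0.603). The Tob1 share of the counts of both genes was 40.6%, 42.7% and 42.5% in the normal libraries, 31.8%, 15.7% and 24.5% at 1 h and 14.8%, 18.4% and 20.4% at 4 h, so every ischemic library was below every normal one. The mean differences were -17.9 percentage points (SE 4.70) and -24.1 (SE 1.75), each with an exact permutation p of 0.1 and an adjusted value of 0.133.

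**Figure D3:**
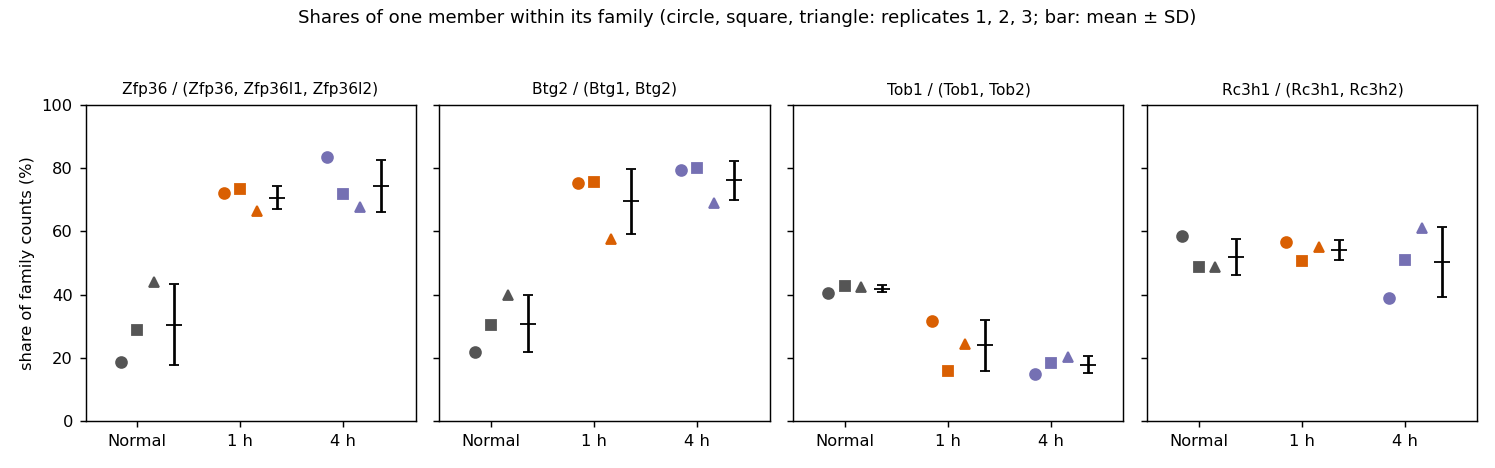
Share of 1 gene in the counts of its family, in percent (axis from 0 to 100), in each library, with circles, squares and triangles for replicates 1, 2 and 3 and bars for the mean ± SD (n = 3). The Zfp36 and Btg2 shares of all 6 ischemic libraries lie above the normal ones, the Tob1 shares lie below them, and the Rc3h1 shares overlap.

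Between 1 h and 4 h of ischemia the largest difference among the members was that of Tob2, and most intervals were wide. By edgeR 0 of 10 were called, as were 0% of all genes, DESeq2 also called 0, and 1 member, Tob2, had an unadjusted p under 0.05 (2.58% of all genes). Its log2 difference of 0.79 (SE 0.29, 95% interval 0.13 to 1.45) had an unadjusted p of 0.0243 and an adjusted p of 0.856, and the libraries of the 2 times overlapped. For Zfp36 the difference was -0.23 (95% interval -1.30 to 0.84) and for Btg2 it was -0.06 (95% interval -1.09 to 0.98), intervals that still allow a halving of either. Btg1 had -0.56 (adjusted p 0.856) and Zfp36l1 had -0.51 (95% interval -1.21 to 0.19). With the 3 groups tested together 0 members were called by edgeR (0.0388% of all genes), 5 had an unadjusted p under 0.05 (11.4% of all genes) and DESeq2 called 4 (4.32% of all genes), which were Zc3h12a, Zfp36, Btg2 and Tob2.

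Libraries were also counted without a model. These counts use the same scaled values as the fit, so they are not a separate test, and the members were chosen with earlier results known. At 1 h 3 of 10 members had all 3 libraries above all normal ones, against 12.8% of all genes, and 0 had all 3 below, against 13.5%. At 4 h 4 members had all 3 libraries above (7.93% of all genes) and 2 had all 3 below (10.8% of all genes). The median log2 difference of the 10 members was 0.24 at 1 h and 0.07 at 4 h, beside -0.01 and 0.03 over all genes. Of the 10 members 7 were above 0 at 1 h and 5 at 4 h.

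Across the 9 libraries some members followed each other closely. These correlations are a description, since the libraries share the 3 groups, and they use log2 CPM. Zfp36 and Btg2 had r = 0.99 and Zfp36 and Zc3h12a had r = 0.86, while Zfp36l1 and Btg1 had r = 0.86 with each other. Opposed pairs were Zc3h12a with Tob1 (r = -0.86) and Btg1 with Tob2 (r = -0.72). Among the genes with at least 5 mean CPM (10435 others for a member above that level), those most like Zfp36 were Btg2 (0.986), Ier2 (0.975) and Junb, with Ier2 also among the 3 most like Btg2, beside Arrdc3 (0.971). Ier2 and Junb are immediate early genes. Most like Zc3h12a were Rnf19b (0.984), the adhesion molecule gene Icam1 and the metallothionein gene Mt2A (0.980). Tob2 was followed most closely by Nup62 (0.956), the clock gene Per1 and Nedd9, Btg1 by Tgif1 (0.958), and Zfp36l1 by Gcc1 (0.976). For Rc3h1 the nearest gene was Man1a1 (0.965), for Tob1 Dnajc14, and for Rc3h2 and Zfp36l2 the nearest were Agfg2 (0.918) and Ptar1 (0.897).

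Markers of cell types differed widely between libraries of the same group and in part between the groups, and these values stand beside the members' values. Markers of sympathetic neurons (20 genes, all counted in every group) summed to 38.6 to 746 CPM in the normal group, 1152 to 10717 CPM at 1 h and 42.1 to 10617 CPM at 4 h, the high libraries being replicates 1 and 3 at 1 h and replicate 3 at 4 h. A nerve score was the mean log2 CPM of 30 genes, those of sympathetic neurons and of Schwann cells together. It is thus not a measure of sympathetic markers alone. With this score as a covariate in the edgeR fit 0 members were called, and the log2 differences at 1 h and 4 h were 2.48 and 1.88 for Zfp36, 2.44 and 1.89 for Btg2, 2.04 and 1.66 for Zc3h12a, 0.82 and 1.37 for Tob2, -0.31 and -0.96 for Btg1, and -0.26 and -0.79 for Zfp36l1. Replicate 2 at 1 h, where the nerve markers were at 1152 CPM, had the highest Zfp36, Btg2 and Zc3h12a of its group. All 10 smooth muscle markers were counted in every group, and summed to 11007 to 49025, 12767 to 47096 and 24325 to 69851 CPM. The 12 endothelial markers summed to 1026 to 1855, 821 to 1409 and 863 to 1145 CPM, and the 9 macrophage markers to 53.6 to 234, 98.1 to 217 and 42.5 to 137 CPM. The 9 exocrine pancreas markers summed to 14.6 to 61.0 CPM in the normal group, 5.08 to 175 CPM at 1 h and 6.86 to 144 CPM at 4 h, and replicate 2 at 1 h was the library with 175 CPM. The 10 adipocyte markers summed to 656 to 2539, 1363 to 2476 and 1005 to 1575 CPM, the 10 Schwann cell markers to 144 to 4116, 931 to 2174 and 360 to 2038 CPM, the 11 lymphocyte markers to at most 56.0 CPM and the 6 red cell precursor markers to 63.5 to 288, 86.7 to 243 and 145 to 394 CPM. The part of pancreas, fat and the other sources in the members' values was not tested. Neutrophil markers reached at most 6.62 CPM, with 4, 2 and 1 of 9 genes at 0 in all libraries of the normal, 1 h and 4 h groups.

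The early gene Fos, named here after its values were seen, was at 5.21, 15.2 and 278 CPM in the normal group and at 91.1 to 266 CPM in the 6 ischemic libraries. Normal replicate 3, the library with 278 CPM of Fos, had the highest Zfp36 and Btg2 of its group. The phosphatase gene Dusp1 was also highest there, at 82.6, 325 and 737 CPM in normal replicates 1, 2 and 3. Ier3 and Myc were not: in the same libraries Ier3 was at 19.2, 52.6 and 43.4 CPM and Myc at 28.2, 19.3 and 10.5 CPM. Without replicate 3 the log2 differences of Zfp36 were 2.66 at 1 h and 2.43 at 4 h, and those of Btg2 were 2.24 and 2.18.

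The partners through which the members act were counted by list. The lists were chosen with results of the same libraries known. Of 17 genes of deadenylases, their complexes and partners, with the poly(A) binding protein genes Pabpc1 and Pabpc4 among them, none was called by either tool. At an unadjusted p under 0.05 3 were lower at 1 h (8.67% of all genes) and 2 at 4 h (7.35% of all genes). Their median log2 difference was -0.20 at both times. Among the lower genes were Rqcd1, an older symbol for the CCR4-NOT subunit CNOT9 (-0.65 at 1 h, SE 0.20, and -0.51 at 4 h, SE 0.20), the CCR4-NOT subunit gene Cnot3 (-0.52 at 1 h, SE 0.22) and the deadenylase gene Cnot8 (-0.42 at 4 h, SE 0.15). Of the 19 genes of decapping and decay from the 5′ end 18 were tested and none was called, with medians of -0.17 and -0.13. Pnrc1, a cofactor gene of the decapping enzyme, was the 1 gene with an unadjusted p under 0.05 at 4 h (0.63, SE 0.27). At that threshold 5.07% of all genes were higher at 4 h. Of 8 relatives of the members outside the 10, 5 were tested and none was called. Btg3 was the 1 with an unadjusted p under 0.05 (0.54 at 4 h, SE 0.20), beside the same 5.07% of all genes.

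The exosome degrades RNA from the 3′ end, and its 15 genes had a median log2 difference of -0.54 at 1 h and -0.12 at 4 h, with 4 genes above 0 at each time. No exosome gene was called by edgeR. At an unadjusted p under 0.05 4 of 15 were lower and 0 higher at each time, where 8.67% of all genes were lower at 1 h and 7.35% at 4 h. DESeq2 called 1 at 1 h (4.53% of all genes) and 2 at 4 h (3.91% of all genes). Exosc5, a core ring subunit, was at 14.3, 14.1 and 12.9 CPM in the normal group, 6.49, 6.89 and 8.42 CPM at 1 h and 6.53, 8.29 and 6.01 CPM at 4 h, so that no ischemic library reached the normal range. Its log2 difference was -0.92 at 1 h (SE 0.22, adjusted p 0.202 by edgeR) and -0.99 at 4 h (SE 0.22, adjusted p 0.143). Exosc3, a cap subunit, had -0.92 (SE 0.28) and -1.07 (SE 0.28).

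Other AU-rich element binders, some of which stabilise the same transcripts, had medians of -0.32 and -0.07 over 8 genes, and none was called. Elavl1, the gene of the stabilising protein HuR, had -0.69 at 1 h (SE 0.29) and Tia1, which represses translation, had -0.65 (SE 0.22), while Hnrnpc had 0.81 at 4 h (SE 0.32). None of the 14 tested genes of 15 kinases, phosphatases and partners of ZFP36 was called by edgeR. At an unadjusted p under 0.05 7 were higher and 1 lower at 1 h, beside 7.98% and 8.67% of all genes, and 4 were higher and 1 lower at 4 h, beside 5.07% and 7.35%. The medians were 0.52 and 0.53. Mapk14, the gene of the p38 alpha kinase upstream of ZFP36 phosphorylation, was the lower 1 at both times, at -0.52 (SE 0.18) and -0.44 (SE 0.18). Dusp1, the phosphatase that switches p38 off, was at 82.6, 325 and 737 CPM in the normal group, 1077, 767 and 483 CPM at 1 h and 2014, 2239 and 715 CPM at 4 h, with overlap at both times and a log2 difference of 2.12 at 4 h (SE 0.77, adjusted p 0.317 by edgeR). Mapkapk2, the kinase that phosphorylates ZFP36, had 0.72 at 4 h (SE 0.28). Mapk11 was at 39.5, 4.55 and 33.5 CPM at 1 h and the 14-3-3 gene Ywhag at 594, 162 and 527 CPM, high in the libraries with high nerve markers. Ywhab, also among the 7 higher genes, was likewise at 494, 240 and 517 CPM at 1 h. Ppp2cb, another of the 7, was instead highest in replicate 2, at 130, 145 and 126 CPM. The part of nerve in the values of this list was not tested.

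Transcripts known as targets of ZFP36, Regnase-1 or Roquin were looked at from a list chosen with results of these libraries known. Of its 24 genes 18 were tested. By edgeR 1, Nfkbiz, was called at each time, beside 0.0581% of all genes at 1 h and 0.0904% at 4 h. At an unadjusted p under 0.05 11 were higher and 0 lower at 1 h (7.98% and 8.67% of all genes). At 4 h 7 were higher and 0 lower (5.07% and 7.35% of all genes). DESeq2 called 7 at each time, all higher, beside 2.29% of all genes called higher at 1 h and 1.54% at 4 h. The median log2 difference was 1.80 at 1 h and 1.40 at 4 h, and several of the largest fits rest on genes near 0 in the normal group. Nfkbiz, which codes for the NF-kB cofactor IkB-zeta and is a Regnase-1 target, was at 9.97, 14.7 and 8.42 CPM in the normal group, 76.9, 147 and 117 CPM at 1 h and 71.5, 96.3 and 112 CPM at 4 h. It rose by 3.36 on the log2 scale at 1 h (SE 0.33, adjusted p 0.0193 by edgeR) and by 3.08 at 4 h (SE 0.33, adjusted p 0.0247). Leaving out single libraries took the adjusted p to between 0.0164 and 0.139 at 1 h and between 0.0348 and 0.153 at 4 h, and the call was lost in 6 of 9 such fits at each time. The adjusted p was 0.0781 and 0.0885 by edgeR when only the groups compared entered the fit. At 1 h the losing fits were those without normal replicates 1, 2 or 3, 1 h replicates 2 or 3 or 4 h replicate 2, and at 4 h those without normal replicates 1, 2 or 3, 1 h replicate 3 or 4 h replicates 1 or 2.

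The chemokine gene Cxcl1, a ZFP36 target, was at 1.18, 1.02 and 4.58 CPM in the normal group, 118, 445 and 605 CPM at 1 h and 73.0, 204 and 629 CPM at 4 h. Its adjusted p was 0.117 and 0.0712 by edgeR, and DESeq2 called it at both times. Il6 had 0, 6 and 6 counts in the normal libraries, 39, 712 and 2205 counts at 1 h and 10, 26 and 1226 counts at 4 h, so its groups did not overlap but its ischemic libraries differed widely. Cxcl2 had 0, 0 and 1 counts, then 134, 260 and 369 counts and then 23, 48 and 381 counts. At 4 h replicate 3, a library with high nerve markers, was the highest in Il6, Cxcl1 and Cxcl2. It was likewise the highest in Ccl2, at 2.81, 2.49 and 27.6 CPM, and in Tfrc, where it was at 60.6 CPM. At 1 h replicates 1 and 3 both had high nerve markers, but replicate 1 was the lowest and replicate 3 the highest in Il6, Cxcl1, Cxcl2 and Ccl2. At that time Ccl2 was at 18.4, 32.4 and 60.2 CPM and Tfrc at 71.1, 16.4 and 55.0 CPM. The part of nerve in these values was not tested. Tnf, the best known ZFP36 target, had 0 to 3 counts in every library, too few to test.

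**Figure D4:**
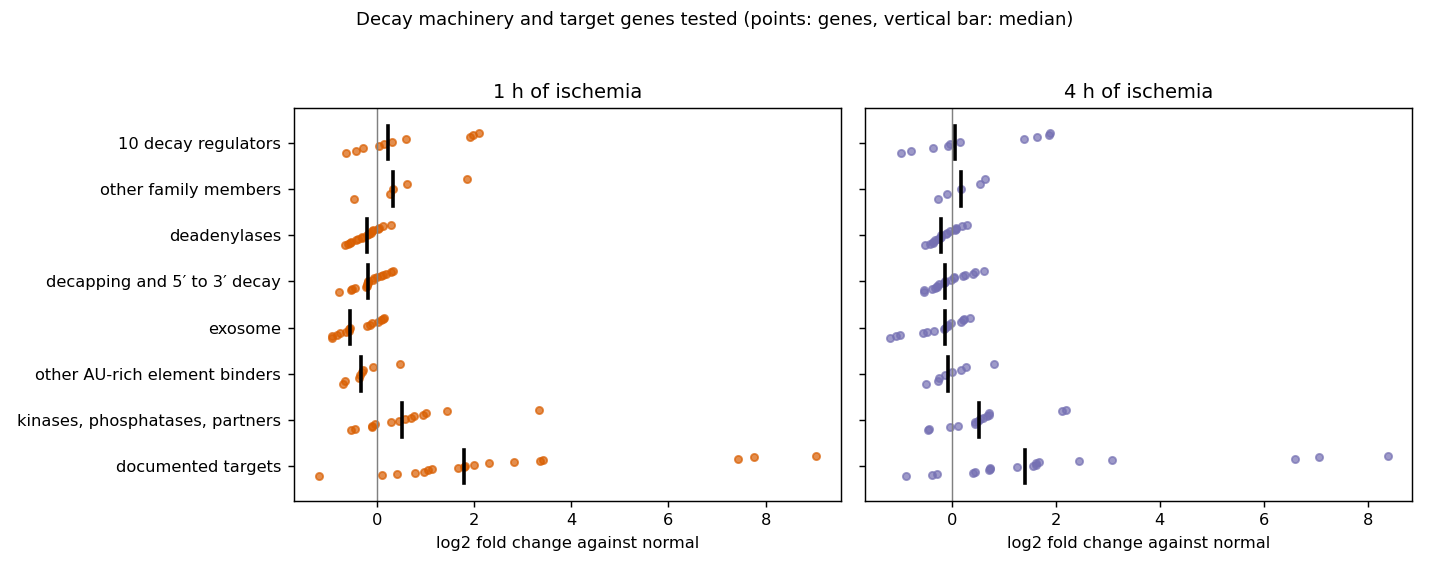
Fitted log2 fold change against normal of each tested gene (points) of the 10 regulators and of 7 lists around them, at 1 h (left) and 4 h (right), with a vertical bar at the median of each list. The medians of the machinery lists lie from -0.54 to 0.53 and those of the documented targets at 1.80 and 1.40, where the points farthest to the right (Il6, Cxcl1 and Cxcl2) are genes near 0 in the normal group whose fitted values depend on that.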

How the data were processed

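Whole-number counts per gene symbol were deposited by the authors for 9 libraries, and these counts were used as deposited. The submitters' processing notes name HISAT2, while the counting program, genome build, annotation and use of strand are not given in the sources used here, so reads shared between overlapping, antisense or near-identical genes cannot be told apart. The study also describes microarrays, but the table holds counts, which is what sequencing gives. Total counts ran from 13114273 to 15504240, so that 1 CPM was 12.1 to 17.9 counts after TMM scaling. Chi-square per degree of freedom between 2 libraries was at least 29.9, so none was a copy.

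Groups came from the labels. The edgeR 4.0.16 quasi-likelihood test in R 4.3.3 (filterByExpr, TMM, group as the only term) was fitted to all 9 libraries, with Benjamini-Hochberg adjustment over 15482 genes. Calls needed an adjusted p under 0.05 with more than a 1.5-fold change, thresholds taken from the study. The common biological coefficient of variation was 51.6%. SE is the size of a log2 difference divided by the root of its F statistic. Shares were compared by exact permutation of the libraries. DESeq2 1.42.0, other scalings, no filter, only the groups compared, a replicate block, a nerve score and leaving out each library were tried as alternatives, and Nfkbiz was added to these after its values were seen. Scripts were tested on simulated counts.

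The members and lists were chosen with earlier results of these data known. The rule for names took all 10 members, in each list the genes that were called and the 2 highest and 2 lowest log2 differences with an unadjusted p under 0.05 and at least 5 mean CPM, and for each member the 3 genes with the highest correlation. Il6, Cxcl1, Exosc5, Dusp1 and others of these are given at both times. Fos, Tnf, Ier3, Myc, Ccl2, Tfrc, Ywhab and Ppp2cb were added after their values were seen.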

Additional observations from a re-analysis of the deposited data

How the results depend on the processing

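By edgeR 0 members were called in any comparison under any scaling, filter, sample choice, nerve score or leave-one-out fit. DESeq2 called 3 members at 1 h, 4 at 4 h and 4 with the 3 groups together. It called 1 exosome gene at 1 h and 2 at 4 h, 1 kinase or partner gene at each time, and 7 documented targets at each time. Over all genes it called 4.53% at 1 h and 3.91% at 4 h. With library size alone as the scaling, 0 documented targets were called at either time (Nfkbiz adjusted p 0.0519 and 0.0638 by edgeR), and with only the groups compared Nfkbiz had 0.0781 and 0.0885. Library size alone put the median over all tested genes at -0.15 for 4 h against normal and at -0.24 for 4 h against 1 h. Of 480 alternative values of the members' log2 differences, 455 kept direction and side of the threshold, 7 passed it (all in DESeq2) and 18 changed sign, each for a member whose 95% interval in that comparison held 0. The causes were not tested.

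At 1 h Rc3h1 changed sign with the nerve score (-0.19) and Rc3h2 without 1 h replicate 2 (leave-one-out range -0.028 to 0.18). At 4 h Zfp36l2 had -0.049 with library size alone, -0.074 without normal replicate 3 and -0.36 without 4 h replicate 2 (range -0.36 to 0.42), Rc3h1 had 0.097 without normal replicate 1 and 0.15 without 4 h replicate 1 (range -0.38 to 0.15), and Rc3h2 had 0.085 without normal replicate 2 and 0.017 without 4 h replicate 3 (range -0.092 to 0.085). For 4 h against 1 h, fits without 1 h replicate 2 gave 0.13 for Zfp36 (range -0.41 to 0.13), 0.015 for Zc3h12a (range -0.68 to 0.015), 0.0026 for Rc3h2 (range -0.21 to 0.0026) and 0.40 for Btg2 (range -0.25 to 0.40), which had 0.16 without 4 h replicate 3. Zfp36l2 had 0.12 without 1 h replicate 3 and 0.092 without 4 h replicate 1 (range -0.68 to 0.12), and Rc3h1 had 0.030 with the nerve score. The Rc3h1 share at 4 h minus normal was 1.59 points without normal replicate 1 and 4.02 without 4 h replicate 1 (range -7.07 to 4.02). Ranges at 1 h were 1.75 to 2.66 for Zfp36, 1.46 to 2.24 for Btg2 and 1.63 to 2.33 for Zc3h12a, and at 4 h 1.27 to 1.58 for Tob2 and -1.07 to -0.86 for Btg1.

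Replicate numbers are shared across groups, but same-numbered libraries had correlations of their deviations from -0.65 to 0.66, and not every library correlated best with its own number, so the numbers were not taken as pairs. With the replicate block 0 members were called at any time and 7 genes in all at 1 h and at 4 h, and the log2 difference of Btg2 between 4 h and 1 h became 0.019. Depth limits Zfp36l2, at 22 to 80 counts a library.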
